A study of Mus musculus with 4 samples.

Results

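The miRNAs described here belong by name to the families miR-297, miR-466, miR-467 and miR-669, most of whose members are made from one large cluster inside the mouse gene Sfmbt2. They were taken by name, as all array entries of these families that are not marked as star strands, which gave 48 of the 710 miRNAs on the array. The miR-297 family had 4 entries, miR-466 had 20, miR-467 had 8 and miR-669 had 16. By arm, 8 names ended in 5p, 9 ended in 3p and 31 gave no arm.
The samples were 2 Junb-/- and 2 wild type clones of mouse embryonic fibroblasts (MEFs), connective tissue cells that had been taken from embryos of a mixed C57BL/6 × 129/Sv background at embryonic day 9.5 and made immortal by the 3T3 protocol. JUNB is a subunit of the transcription factor AP-1, and the arrays asked which miRNAs differ when it is missing. Each clone was measured once on a single-colour Febit array with 8 spots per miRNA, and p-values therefore describe the spread between these clones, each of them 1 immortalized line.

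Sfmbt2 encodes a Polycomb group protein and is imprinted, with expression from the paternal copy, above all in extraembryonic tissue. Its cluster arose by repeated duplication of a short block of hairpins in rodents and is needed for normal growth of the mouse placenta. The hairpins are folded from simple repeats, so that many 5p strands are rich in alternating U and G and many 3p strands in alternating A and C. Mature miRNAs choose their target mRNAs mainly through the seed, bases 2 to 8 from the 5′ end, and members that differ by only a few bases can be read by each other's probes.

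Not all of the 48 names belong to the Sfmbt2 cluster. In a RefSeq gene table of GRCm38, 46 of the 48 matched a miRNA gene by name. Of these, 35 had genes within Sfmbt2 on chromosome 2 alone, 7 had a gene elsewhere alone, and 4 (miR-297a and the entries miR-466f, miR-466f-5p and miR-466f-3p) had genes in both places. The names miR-466a-5p and miR-466a-3p matched none. The table holds 72 miRNA genes within Sfmbt2, and 65 of them matched an entry of the array. Several entries stand for many copies, with 12 genes for miR-669a, 10 for miR-467a and 8 for miR-466b-5p and miR-466b-3p, so that a single value sums over loci.

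The mature sequences of 7 entries, all with genes outside Sfmbt2, were matched in the RefSeq miRNA table of GRCm38.p6. They are shown because they contain both repeat types and one of the largest differences among the 48, that of miR-669n, with the seed in capitals and written 5′ to 3′.
miR-669n, chromosome 3: aUUUGUGUguggaugugugu
miR-466k, chromosome 3: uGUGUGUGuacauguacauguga
miR-466j, chromosome 10: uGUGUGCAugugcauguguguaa
miR-467h, chromosome 9: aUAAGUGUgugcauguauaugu
miR-466i (listed as miR-466i-3p), chromosome 13: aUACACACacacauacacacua
miR-467f, chromosome 11: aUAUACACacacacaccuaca
miR-467g, chromosome 5: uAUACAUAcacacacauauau
The first 4 are rich in U and G, which make up between 68.2% and 90.0% of their bases. In the other 3 these letters make up between 13.6% and 28.6%. None of the 7 seeds was shared with another of the 227 array names that have a sequence in the table.

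No member of the 4 families passed limma's adjusted p of 0.05, in either direction. Over all 710 miRNAs, 0.563% were called higher and 0.845% lower in Junb-/- MEFs at this threshold. The smallest adjusted p among the 48 was 0.149. At an unadjusted p under 0.05, 7 of the 48 had log2 fold changes above 0, against 5.35% of all miRNAs. Another 2 of the 48 had log2 fold changes below 0, against 5.07% of all miRNAs.
The median log2 fold change over the 48 was 0.22 (Junb-/- minus wild type), beside 0.044 over all 710. With the arrays scaled to their median it was -0.014, beside -0.089 over all 710. In the quantile-normalized values the log2 fold change lay above 0 for 36 of the 48, beside 54.4% of all miRNAs. In 19 of the 48 both Junb-/- clones lay above both wild type clones, an order held by 21.3% of all miRNAs. The opposite order was found in 7 of the 48, beside 17.3% of all miRNAs. Values are log2 of intensity plus 50 after quantile normalization, a scale on which differences of dim miRNAs are compressed.

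Wild type clone 1 was the lowest of the 4 clones for 34 of the 48 miRNAs, which is 70.8% of them, beside 24.8% of all 710. Its array was also the dimmest, with a median spot intensity of 33.6, beside 84.0 and 110.1 in the Junb-/- clones and 105.6 in wild type clone 2. For the families the 2 wild type clones differed by a median of 0.33 on the log2 scale (clone 2 minus clone 1). The median absolute difference was 0.30 between the Junb-/- clones and 0.37 between the wild type clones. Between the genotype means, each over 2 clones and so not the same measure as for single clones, it was 0.45. Over all 710 these values were 0.34, 0.43 and 0.30. Without wild type clone 1 the median log2 fold change over the 48 was 0.018, beside 0.062 over all miRNAs, and without wild type clone 2 it was 0.45. The part of this array in the differences of single members was read from fits without it, given below. Fewer cells with a miRNA and less of it per cell cannot be told apart in such samples.

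**Figure D1:**
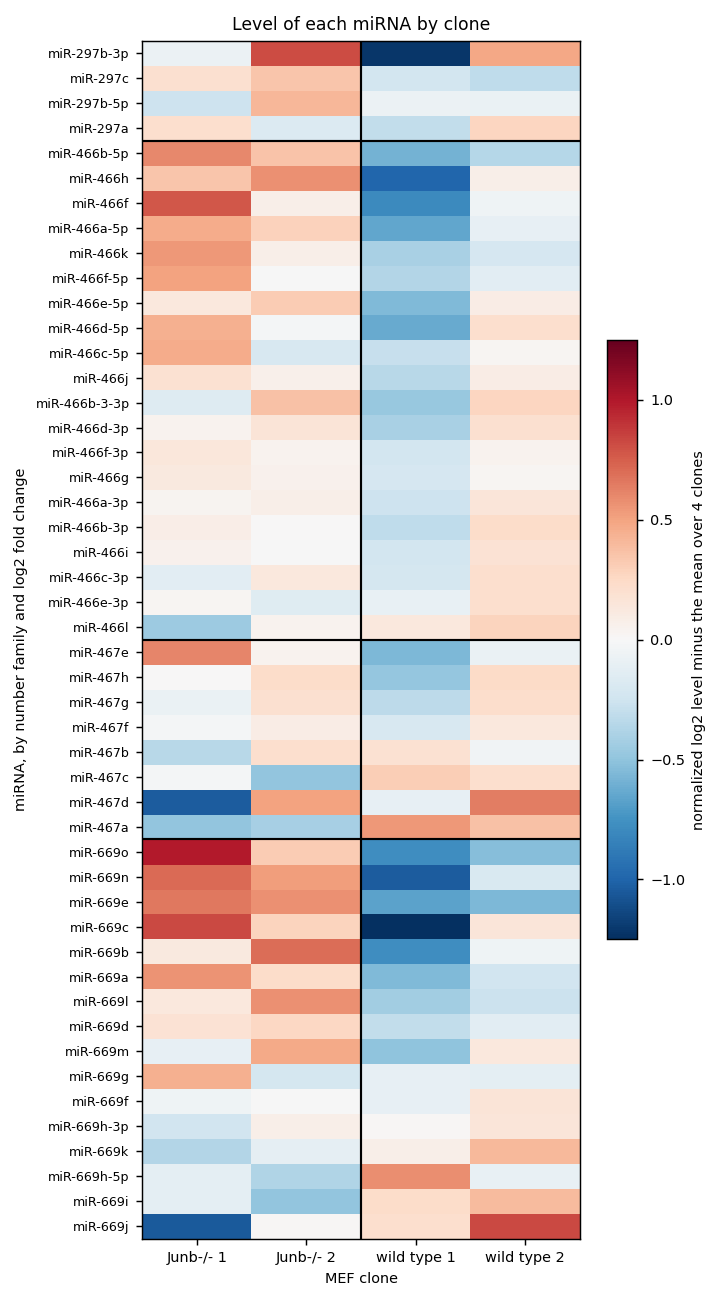
Normalized log2 level of each of the 48 miRNAs (rows, by number family and then by log2 fold change) in each MEF clone (columns), as the difference from the mean of that miRNA over the 4 clones. The column of wild type clone 1 is the lowest in 34 rows, and the top rows of miR-466 and miR-669 are high in both Junb-/- clones.

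The miR-669 family held both the highest and the lowest log2 fold changes of all 48. Its median was 0.40, with 10 of 16 above 0, and the values ran from -1.03 for miR-669j to 1.31 for miR-669o. Both Junb-/- clones lay above both wild type clones for 8 of the 16 (miR-669a, b, c, d, e, l, n and o), beside 21.3% of all miRNAs, and below them for 4 (miR-669h-5p, i, j and k), beside 17.3%. For miR-669h-5p the genotypes overlapped in the values normalized by the authors, at 7.79 and 7.68 in Junb-/- MEFs, against 8.80 and 7.61 in wild type MEFs.
miR-669o had median spot intensities of 592 and 626.0 in Junb-/- clones 1 and 2, against 39.2 and 213.9 in wild type clones 1 and 2. Its normalized log2 levels were 9.21 and 8.53 in Junb-/- MEFs, against 7.44 and 7.69 in wild type MEFs. Both Junb-/- clones were above both wild type clones, and the difference was above 0 at 8 of 8 spots. The log2 fold change was 1.31 (standard error 0.37, 95% interval 0.51 to 2.11, limma adjusted p = 0.149). Leaving out any 1 clone gave values of 0.97 to 1.65.
miR-669e, whose gene is among the first of the cluster in the table's order, had clones of each genotype close together. Its normalized log2 levels were 7.86 and 7.78 in Junb-/- MEFs, against 6.54 and 6.65 in wild type MEFs. The log2 fold change, 1.22 with a standard error of 0.35 (adjusted p = 0.149 by limma), stayed between 1.17 and 1.28 whichever clone was left out, but it was 2.32 without the offset and 2.10 in the values normalized by the authors. The median spot intensities were low, however, at 180.9 and 231.4 in Junb-/- clones, against 6.00 and 67.2 in wild type clones.
miR-669n, the UG-rich miRNA printed above, had median spot intensities of 943 and 978 in Junb-/- clones, against 123.5 and 679 in wild type clones. Its normalized log2 levels were 9.89 and 9.71 in Junb-/- MEFs, against 8.15 and 8.99 in wild type MEFs. The log2 fold change was 1.23 (standard error 0.38, adjusted p = 0.184 by limma). It was 0.81 without wild type clone 1, which was lower than wild type clone 2.
miR-669c showed such a split more clearly, with normalized log2 levels of 9.99 and 9.45 in Junb-/- MEFs, against 7.92 and 9.32 in wild type MEFs. Its log2 fold change was 1.10 over all clones (adjusted p = 0.374 by limma) and 0.40 without wild type clone 1. miR-669a, which in the mouse restrains muscle differentiation by targeting MyoD, had a log2 fold change of 0.79 (adjusted p = 0.448 by limma), with values of 8.57 and 8.24 in Junb-/- MEFs, against 7.46 and 7.77 in wild type MEFs. Leaving out a clone moved it between 0.63 and 0.96.

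On the other side of the family, miR-669j had normalized log2 levels of 8.09 and 9.15 in Junb-/- MEFs, against 9.35 and 9.96 in wild type MEFs. The Junb-/- clones lay below the wild type clones but were far apart. The log2 fold change was -1.03 (standard error 0.42, 95% interval -1.93 to -0.14, adjusted p = 0.366 by limma). It was -0.50 in the fit without Junb-/- clone 1, -1.56 in the fit that left out Junb-/- clone 2, and below 0 at all 7 spots that could be compared. miR-669i had a log2 fold change of -0.62 (adjusted p = 0.624 by limma), with normalized log2 levels of 9.41 and 9.04 in Junb-/- MEFs, against 9.77 and 9.93 in wild type MEFs. Its gene neighbours that of miR-669h at the end of the cluster, whose 5p and 3p arms had log2 fold changes of -0.49 and -0.17. miR-669k had a log2 fold change of -0.48.
Some neighbouring genes had values far apart, in pairs picked after the values were seen. Mir669g and Mir669j follow each other in the gene table, and the log2 fold changes were 0.23 for miR-669g, which was -0.10 without Junb-/- clone 1, and -1.03 for miR-669j. Mir669f and Mir669e are neighbours as well, with -0.061 for miR-669f, which was 0.068 without wild type clone 2, and 1.22 for miR-669e. In both pairs the 95% intervals overlapped. They were -0.56 to 1.02 for miR-669g and -1.93 to -0.14 for miR-669j, and -0.81 to 0.69 for miR-669f and 0.48 to 1.97 for miR-669e. Other neighbours had the same sign, as Mir669b and Mir669d follow Mir669e, with 0.83 for miR-669b and 0.44 for miR-669d. The 95% intervals of miR-669o and miR-669j, the ends of the family's range, did not overlap. The difference between them was not tested, as they were chosen as its extremes.

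**Figure D2:**
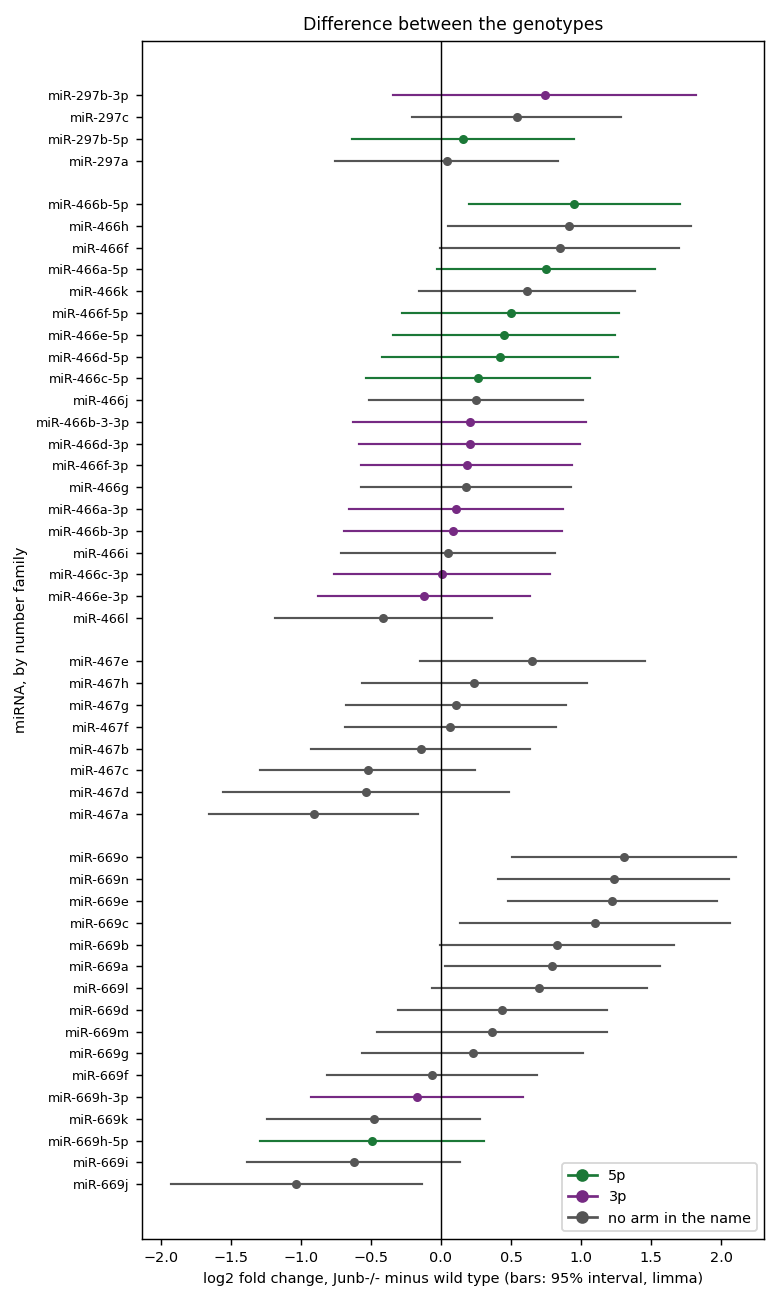
Log2 fold change of each of the 48 miRNAs (Junb-/- minus wild type) with its 95% interval from limma, in the number families miR-297, miR-466, miR-467 and miR-669 from top to bottom, coloured by the arm in the name. miR-669 spans from -1.03 to 1.31, and the 5p entries of miR-466 (green) lie further right than its 3p entries (purple).

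In the miR-466 family 18 of 20 log2 fold changes were above 0, and the median was 0.23. With the arrays scaled to their median it was -0.055, beside -0.089 over all 710 miRNAs. Both Junb-/- clones lay above both wild type clones for 9 of the 20, beside 21.3% of all miRNAs, and below them for 1, beside 17.3%. For miR-466g and miR-466f-3p the genotypes overlapped in the values normalized by the authors. There wild type clone 1 was the highest clone for both, at 10.94 and 12.90. Without wild type clone 1, the lowest clone for 18 of the 20, the median was 0.042 and 12 of 20 values were above 0. The highest value was that of miR-466b-5p, with normalized log2 levels of 7.97 and 7.72 in Junb-/- MEFs, against 6.78 and 7.01 in wild type MEFs. The genotypes did not overlap, and the log2 fold change was 0.95 (standard error 0.35, 95% interval 0.20 to 1.71, adjusted p = 0.304 by limma). Fits without 1 clone gave 0.83 to 1.08, and the value was 1.57 in the values normalized by the authors. Its probe was dim, with median spot intensities of 243 and 106.0 in Junb-/- clones, against 6.48 and 92.8 in wild type clones.
miR-466h, reported to promote apoptosis in hamster cells, had log2 levels of 8.82 and 9.04 in Junb-/- MEFs, against 7.48 and 8.54 in wild type MEFs. The log2 fold change was 0.92 (standard error 0.40, adjusted p = 0.444 by limma), and the difference was above 0 at 8 of 8 spots. Wild type clone 1 was well below the other 3, and without it the value was 0.39. miR-466f (0.85) and miR-466a-5p (0.75) came next. At the low end, miR-466l, reported in mice to stabilize the mRNA of interleukin-10, had log2 levels of 6.63 and 7.13 in Junb-/- MEFs, against 7.22 and 7.37 in wild type MEFs, and a log2 fold change of -0.41 (adjusted p = 0.785 by limma).

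The arms of the miR-466 hairpins differed in the size of their values. For 6 hairpins, miR-466a to miR-466f, both arms were on the array. In each of the 6 the log2 fold change of the 5p arm was larger than that of the 3p arm, by 0.22 for miR-466d up to 0.87 for miR-466b. The 5p values ran from 0.27 to 0.95 with a median of 0.47, and the 3p values ran from -0.12 to 0.20 with a median of 0.096. None of these 12 entries passed the test, and the difference between the arms has no test here, as the hairpins share sequence and mostly come from one cluster, and no p is given for a score over them.
miR-466b shows the contrast best. Its 3p arm had log2 levels of 9.37 and 9.30 in Junb-/- MEFs, against 8.98 and 9.53 in wild type MEFs, so that the genotypes overlapped, while those of its 5p arm, given above, did not. The entry miR-466b-3-3p, the 3p arm of one of the miR-466b copies, had a log2 fold change of 0.20. In all 6 hairpins wild type clone 1 was the lowest clone for the 5p arm, and also for the 3p arm except in miR-466e. Without it the 5p value was still the larger in 6 of 6 hairpins, with a median difference of 0.36 beside 0.44 over all clones. Without Junb-/- clone 1 it was larger in 4 of 6, and with the median over spots in 5 of 6. With only the miRNAs of higher mean level, 4 hairpins were left. The 5p value was the larger in all 4, with a median difference of 0.29. Without the offset the median difference over the 6 hairpins was 1.04. Its size thus varied with the treatment of dim miRNAs, and the part of brightness in it was not tested.
In the other hairpins with both arms, the 3p value was the larger over all clones but not without wild type clone 1. It stayed the larger with any other clone left out and under every other processing tried, where both arms were measured. For miR-297b the log2 fold changes were 0.16 (5p) and 0.74 (3p) over all clones, and 0.16 and -0.11 without wild type clone 1. For miR-669h they were -0.49 (5p) and -0.17 (3p) over all clones, and -0.15 and -0.24 without wild type clone 1. Over all entries the median was 0.44 for the 8 with 5p in the name, 0.11 for the 9 with 3p and 0.24 for the 31 without an arm. For 3p it was -0.040 with scaling to the 75th percentile and -0.20 with scaling to the median. The medians over all 710 miRNAs were then -0.010 and -0.089. Both Junb-/- clones lay above both wild type clones for 4 of the 8 5p entries and 1 of the 9 3p entries, beside 21.3% of all miRNAs.

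**Figure D3:**
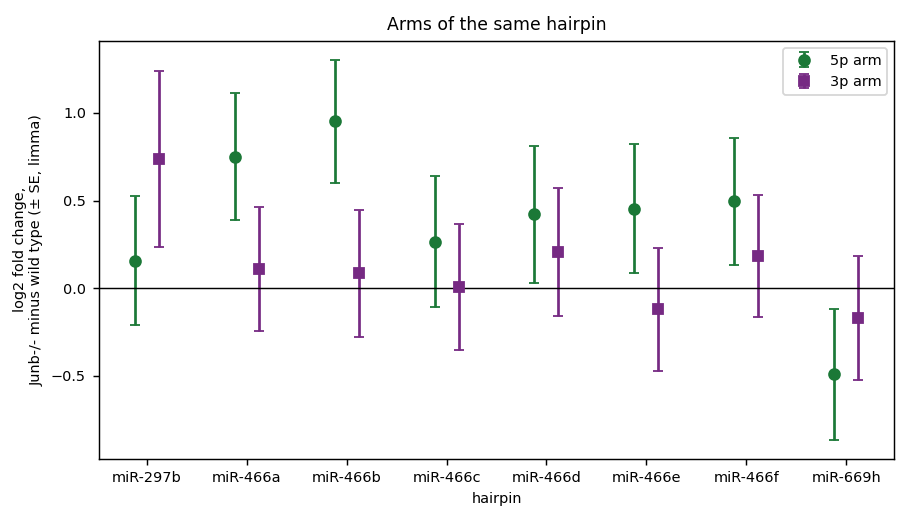
Log2 fold change (Junb-/- minus wild type, with the standard error from limma) of the 5p arm (green circles) and the 3p arm (purple squares) of the 8 hairpins for which both are on the array. In the 6 miR-466 hairpins the circle lies above the square, and in miR-297b and miR-669h it lies below. The order in miR-297b and miR-669h turned without wild type clone 1 and held with any other clone left out.

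The miR-467 family was divided, with 4 members above 0 and 4 below. Its median of -0.039 was 0.14 without normalization, where that of all 710 miRNAs was 0.23. The family's median was 0.18 and -0.16 without Junb-/- clones 1 and 2, and -0.14 and 0.034 without wild type clones 1 and 2. miR-467a, the entry with 10 gene copies in the cluster, had median spot intensities of 134.2 and 190.4 in Junb-/- clones, against 353.6 and 535 in wild type clones. Its normalized log2 levels were 7.65 and 7.73 in Junb-/- MEFs, against 8.68 and 8.51 in wild type MEFs. Both genotypes were tight and apart, and the log2 fold change was -0.91 (standard error 0.35, 95% interval -1.65 to -0.16, adjusted p = 0.326 by limma). It stayed between -0.99 and -0.82 in the fits without 1 clone, and it was -1.73 in the values normalized by the authors. Wild type clone 1 was the highest of the 4 clones here, unlike in most of the 48.
miR-467c had the same order, with 8.32 and 7.85 in Junb-/- MEFs, against 8.66 and 8.56 in wild type MEFs, and a log2 fold change of -0.52 (adjusted p = 0.737 by limma). For miR-467d the value of -0.54 came from Junb-/- clone 1, at 7.12 beside 8.66 in Junb-/- clone 2, and it was 0.23 without that clone. The wild type values of miR-467d were 8.05 and 8.80. At the other end, miR-467e had a log2 fold change of 0.65 (adjusted p = 0.625 by limma) with log2 levels of 8.02 and 7.46 in Junb-/- MEFs, against 6.85 and 7.33 in wild type MEFs. miR-467b, which targets lipoprotein lipase in mouse macrophages, had a log2 fold change of -0.14. The star strands miR-467a*, miR-467b*, miR-467d* and miR-467e*, which are not counted among the 48, had log2 fold changes of 0.24, 0.29, 0.15 and 0.16. The value of miR-467a was thus not matched by its star strand, although the difference between the strands was not tested.

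The 4 miR-297 entries had log2 fold changes between 0.040 and 0.74 over all clones, with a median of 0.35 that was 0.026 without wild type clone 1. Except for miR-297c, each was below 0 under some alternative, down to -0.25 for miR-297a, -0.18 for miR-297b-5p and -0.11 for miR-297b-3p. The highest value, 0.74 for miR-297b-3p (standard error 0.50, adjusted p = 0.737 by limma), came with the widest spread between the wild type clones, at 7.44 and 9.13. Its levels in the Junb-/- clones were 8.58 and 9.47, and the log2 fold change was -0.11 without wild type clone 1. miR-297c was the steadier member, with normalized log2 levels of 7.31 and 7.46 in Junb-/- MEFs, against 6.88 and 6.80 in wild type MEFs. Its log2 fold change was 0.54 (adjusted p = 0.695 by limma). Fits lacking 1 clone gave 0.47 to 0.61, and all alternatives together 0.37 to 0.94. Its probe was dim, with median spot intensities of 36.4 and 261.2 in Junb-/- clones, against 13 and 109.4 in wild type clones. In the values normalized by the authors the genotypes overlapped, at 6.43 and 8.40 in Junb-/- MEFs, against 6.09 and 7.22 in wild type MEFs. The values of miR-297b-5p and miR-297a were 0.16 and 0.040, and those of the star strands miR-297a* and miR-297c* were -0.011 and 0.41.

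**Figure D4:**
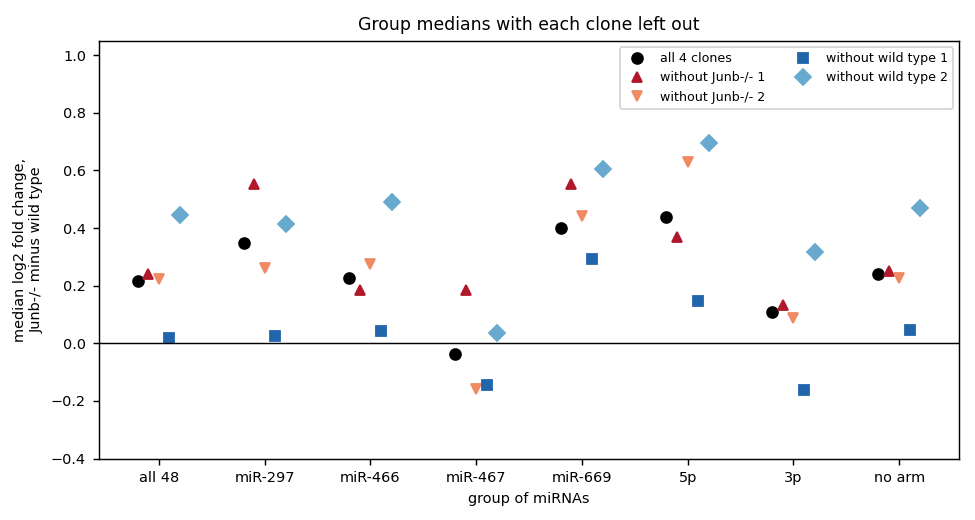
Median log2 fold change (Junb-/- minus wild type) over all 48 miRNAs, by number family and by arm, with all 4 clones (black) and with each clone left out. Without wild type clone 1 (blue squares) the median over all 48 was 0.018 and that of the 3p entries was -0.16, while that of miR-669 was 0.29.

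The 35 entries with genes within Sfmbt2 alone had log2 fold changes with a median of 0.20, beside 0.24 for the 7 with a gene elsewhere alone. Those 7 ran from 0.049 for miR-466i to 1.23 for miR-669n, and wild type clone 1 was the lowest clone in all 7. By the letters of the printed sequences, the 4 with the run UGUGU had log2 fold changes of 1.23 (miR-669n), 0.61 (miR-466k), 0.25 (miR-466j) and 0.24 (miR-467h). The 3 with the run ACACA had 0.11 (miR-467g), 0.068 (miR-467f) and 0.049 (miR-466i), and these were -0.16, -0.095 and -0.16 without wild type clone 1.
UGUGU, searched on the mature strand only, occurs in 5.73% of the 227 array names with a sequence and ACACA in 4.41%. Among the 9 names outside the families with UGUGU the median log2 fold change was -0.084 and 4 were above 0, and among the 7 with ACACA it was -0.088 and 1 was above 0. The 2 of these with long UG repeats, miR-574-5p and miR-1187, had log2 fold changes of 0.66 and 0.54 (adjusted p = 0.649 and 0.737 by limma), with both Junb-/- clones above both wild type clones. miR-574-3p had -0.067 and miR-1186 had 0.25. A shared run of letters describes these entries, and the part of reading by a related probe was not tested.
The AP-1 site TGACTCA, searched on both strands, was in neither of the 2 promoter windows of Sfmbt2 in the RefSeq table, and it was in 5.20% of all 32851 windows of the same length. At this share most windows lack the site, so nothing can be read from its absence in 2 of them. Regulation of the cluster by AP-1 was not tested.

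The dim spots limit what can be said of single members. The median spot intensity lay under the offset of 50 for 4 of the 48 miRNAs in Junb-/- clone 1 and for none in Junb-/- clone 2, against 17 in wild type clone 1 and 2 in wild type clone 2. Over all 710 miRNAs the counts were 307 and 256 in Junb-/- clones 1 and 2, against 471 and 271 in wild type clones 1 and 2. The families were thus less often dim than the array as a whole. Of the 48, 22 had log2 fold changes above 0 and 8 had log2 fold changes below 0 whichever clone was left out. The share of all 710 miRNAs that kept their sign in this way was not computed, so these counts have no background. The 22 and the 8 hold the 19 and the 7 without overlap (beside 21.3% and 17.3% of all miRNAs), whose sign leaving out a clone cannot turn. As a check of the cell type, 9 fibroblast and mesenchyme miRNAs had median spot intensities between 8.90 and 7839, and their sum was 15153 and 29032 in Junb-/- clones, against 16558 and 24581 in wild type clones. Among the lists of other cell types the highest median in any clone was 682.6 for neurons (3 miRNAs), 314.4 for muscle (4), 212.6 for endothelium (2), 136.8 for epithelium (6), 112.4 for blood (5), 77.1 for liver (1) and 73.0 for pluripotent cells (6). None of these listed miRNAs passed the test, and there is no control from which presence or absence could be read.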

How the data were processed

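Total RNA of 2 Junb-/- and 2 wild type MEF clones was measured on 1 Febit array each. The authors deposited a linear intensity for every spot and no background, flag or control columns, and 319 to 513 spots of an array had no value and were left out. The sources used here do not say how the images were read or whether background was removed, and the study's supplementary methods were not used here. The authors also deposited 1 normalized log2 value per miRNA and array, by a method these sources do not state, used as an alternative.
Without a background column no normexp correction was made: log2(intensity + 50) was quantile-normalized across the 4 arrays before averaging the 8 spots per miRNA. All 710 miRNAs entered limma 3.58.1 in R 4.3.3 (eBayes, prior degrees of freedom 11.8, residual 2), testing Junb-/- minus wild type two-sided, with Benjamini-Hochberg adjustment over the 710. With 2 arrays per genotype, the number of arrays limits the precision. The steps were tested on simulated data. The simulated noise was independent between miRNAs, so the simulation does not cover a shift shared by many miRNAs of an array.
Family, arm and location medians are descriptions. Named miRNAs are, per family and per arm class, the 2 highest, the 2 lowest and the one with the smallest p, both arms of hairpins that have them, and star strands and repeat-like miRNAs outside the families. miR-669a, b, c, d, f, g, k and l and miR-467b, c, f and g were named after their values were seen. So were miR-466f, g, i, j and k. The members and lists were chosen with earlier results of these data known. miRNA genes were matched by name to RefSeq tables of GRCm38, and coordinates are left out because the deposited tables state no build. Alternatives were other offsets, scalings and spot summaries, a filter on the mean level, the authors' values, limma with trend and robust settings, a replicate block, and each clone left out. The TaqMan and zebrafish experiments of the study were not analysed here.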

Additional observations from a re-analysis of the deposited data

How the results depend on the processing

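No member of the families passed an adjusted p of 0.05 in limma under any of the 17 alternatives, the smallest being 0.052 with the replicate block, and 0 higher and 0 lower members was therefore the count throughout, beside 12 above and 2 below the wild type at an unadjusted p under 0.05 in that fit, where 15.5% of all miRNAs had such a p against 10.4% without the block. The study speaks of clone pairs, but neither it nor the labels say which clones form a pair or what a pair shares, and deviations of same-numbered clones correlated at 0.31 over miRNAs. With the clone number as a replicate block the median log2 fold change over the 48 was 0.22, as without it. Of the 48, 19 above 0 and 7 below 0 kept the sign of their log2 fold change under all alternatives in which they were measured. The same share over all 710 miRNAs was not computed.
Without normalization the median of all 710 moved to 0.23, and the medians were 0.47 over the 48, 0.52 for miR-466, 0.68 for miR-669, 0.68 for 5p, 0.41 for 3p and 0.45 without an arm. Without the offset they were 0.70 for miR-297, 0.60 for miR-669 and 0.76 for 5p. With scaling to the median the median of all 710 was -0.089. The medians were then -0.014 over the 48, -0.055 for miR-466, -0.36 for miR-467, 0.23 for miR-669 and -0.20 for 3p. With the values normalized by the authors they were 0.59 for miR-297, -0.25 for miR-467 and 0.64 for miR-669. With a clone left out they ran from 0.018 to 0.45 over the 48, 0.026 to 0.55 for miR-297, 0.042 to 0.49 for miR-466, -0.16 to 0.18 for miR-467, 0.29 to 0.60 for miR-669, 0.15 to 0.70 for 5p, -0.16 to 0.32 for 3p and 0.046 to 0.47 without an arm, with the lowest value in the fit without wild type clone 1 except for miR-467, where it was without Junb-/- clone 2. The cause of these shifts was not tested.
Among the members named by rule, signs changed with scaling to the median for miR-297a (-0.067), miR-466a-3p (-0.12), miR-466b-3-3p (-0.037), miR-466b-3p (-0.20), miR-466c-3p (-0.37), miR-466d-3p (-0.074) and miR-466f-3p (-0.44), and with the 75th percentile for miR-466b-3p (-0.040), miR-466c-3p (-0.22) and miR-466f-3p (-0.27). With these scalings, to the median and to the 75th percentile, the median of all 710 was -0.089 and -0.010. miR-297a was -0.015 without the offset, and miR-297b-5p was -0.0098 with the median over spots. miR-466c-3p was -0.015 with the authors' values and -0.067 with spots measured on all arrays. Without normalization miR-466e-3p was 0.12 and miR-669h-3p 0.046. With a clone left out the values ran from -0.25 to 0.33 for miR-297a, -0.11 to 1.59 for miR-297b-3p, -0.18 to 0.49 for miR-297b-5p, -0.097 to 0.31 for miR-466a-3p, -0.16 to 0.57 for miR-466b-3-3p, -0.19 to 0.36 for miR-466b-3p, -0.21 to 0.22 for miR-466c-3p, -0.066 to 0.60 for miR-466c-5p, -0.10 to 0.51 for miR-466d-3p, -0.27 to 0.030 for miR-466e-3p, -1.31 to 0.23 for miR-467d and -0.12 to 0.60 for miR-467h. Of the members named after their values were seen, the following also changed sign under some alternative. These were miR-466g (-0.39 to 0.30), miR-466i (-0.51 to 0.25), miR-466j (-0.14 to 0.47) and miR-467b (-0.42 to 0.13). The others were miR-467f (-0.48 to 0.23), miR-467g (-0.23 to 0.39), miR-669f (-0.64 to 0.068) and miR-669g (-0.10 to 0.56). The median over members with genes within Sfmbt2 alone was 0.20. Averaging members of a shared seed could not be run, as the 7 members with a sequence have 7 different seeds.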
